A study of Homo sapiens with 12 samples.

Results

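The matrix metalloproteases, the ADAMTS proteases and their TIMP inhibitors were followed through the RNA of U251 cells, an established human glioblastoma line, after *PD-L1* knockdown and IFNγ stimulation. The members were chosen by gene symbol, as every gene named MMP, ADAMTS or TIMP with its number, which gave 46 of the 45416 genes in the table. They were 23 MMP, 19 ADAMTS and 4 TIMP genes, and the rule uses none of the measured values. Cells were transfected with a control siRNA (siNC) or with either of 2 siRNAs against *PD-L1* (siPDL1-1 and siPDL1-2), kept for 48 h, and then left unstimulated or given IFNγ at 100 U/ml for 24 h. Poly(A) RNA was sequenced in 12 libraries, 2 for each of the 6 combinations. The methods describe the 2 libraries of a group as coming from independent experiments, and the labels give the genotype of the line as wild-type. With 2 libraries a group, all p-values below measure the spread between these libraries.

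Between 17101069 and 55657393 reads per library were assigned to genes, so that 1 read was worth 0.0187 to 0.0586 CPM (normalized read counts scaled to a common library total) and a gene with no read could be as high as 0.0562 to 0.176 CPM. The knockdown target *CD274*, which encodes PD-L1, was at 4.76 ± 0.217 CPM in unstimulated siNC cells, 2.70 ± 0.0436 with siPDL1-1 and 3.51 ± 0.0860 with siPDL1-2 (SD, n = 2). After IFNγ it was at 73.6 ± 3.43, 63.8 ± 4.04 and 36.3 ± 1.76 CPM, so siPDL1-1 lowered it by 0.20 on the log2 scale there (FDR 0.0498, not called) and siPDL1-2 by 1.00. Some type I interferon-induced genes were higher with siPDL1-1 in stimulated cells, but *MX1* was not, at 4.2 CPM against 4.4 in siNC and 3.7 with siPDL1-2. *MX2* was at 141 CPM against 4.11 in siNC, *OAS1* at 237 against 11.1 and *IFIT1* at 597 against 52.2, while siPDL1-2 cells had 5.75, 11.3 and 34.9 CPM, and the part of this in the results below was not tested. Of the markers of the line, *VIM* was at 3139 to 3968 CPM and *NES* at 127 to 190, whereas *GFAP*, an astrocyte marker, was at 1.92 to 7.25. The leukocyte genes *PTPRC* and *CD3E* stayed at or below 0.176 CPM and *CD14* at or below 0.667, the endothelial gene *PECAM1* at or below 0.297, and the fibroblast genes *DCN* and *LUM* at or below 0.282. The endothelial gene *CDH5*, at 0.225 to 1.62 CPM, was higher with siPDL1-1 in both states, by 0.80 and 0.61 on the log2 scale (limma FDR 5.56e-04 and 0.00357). *CD68* was at 28.2 to 80.2 CPM and highest in the siPDL1-1 libraries with IFNγ, *KDR* at 3.37 to 7.34 and *PDGFRB* at 8.49 to 14.1. Levels were also summed over the leukocyte, the endothelial and the fibroblast and pericyte list, given in that order. Most of each sum came from *CD68*, *KDR* and *PDGFRB* in turn. In unstimulated siNC libraries the sums were 28.3 to 28.9, 5.68 to 5.92 and 8.76 to 10.6 CPM. With siPDL1-1 they were 37.5 to 39.8, 8.87 to 9.02 and 13.2 to 13.9 CPM. With siPDL1-2 they were 41.1 to 44.4, 7.36 to 8.27 and 8.64 to 10 CPM. After IFNγ the siNC sums were 41.7 to 42.2, 4.23 to 4.34 and 10.7 to 11.9 CPM. Those of siPDL1-1 were then 75.1 to 80.5, 4.99 to 5.96 and 14.1 to 14.3 CPM. Those of siPDL1-2 were 47.4 to 50.7, 4.16 to 4.28 and 11.1 to 11.2 CPM. The part of these marker levels in the results was not tested.

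Matrix metalloproteases are zinc-dependent enzymes that are made as inactive precursors and cut collagens, laminins, fibronectin and many cell surface proteins. The ADAMTS proteases are secreted relatives that process procollagens, cut the large chondroitin sulfate proteoglycans of brain matrix or act on other matrix proteins, and TIMPs block the active site of both families to differing degrees. In glioma, *MMP2* and *MMP14* are best known for their part in invasion through brain tissue. In bulk RNA, a change in the number of cells making a transcript and a change in its amount per cell cannot be told apart.

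Most of the family was silent or weakly expressed in these cells. In 27 of the 46 genes the mean over the libraries reached 1 CPM, in 11 it reached 10 CPM, and 17 genes were below 1 CPM in every library. No read was assigned to *MMP12*, *MMP26* or *MMP27*. Per kilobase of the canonical transcript, the inhibitor *TIMP1* had the highest level, at a mean of 91.1 CPM per kb and a range of 83.4 to 99.8 over the libraries, all above those of *TIMP2* at 61.8 (51.9 to 76.0). *MMP14*, the membrane-type protease MT1-MMP, followed at 49.3 CPM per kb (30.4 to 68.7), and the gelatinase *MMP2* at 30.5 (21.4 to 40.5). The ranges of *TIMP2* and *MMP14* overlapped, as did those of *MMP14* and *MMP2*. *TIMP3* was next at 14.8 CPM per kb (10.4 to 18.9), all below *MMP2* and above *MMP7*, a matrilysin, at 7.19 (5.70 to 9.14). The levels of *MMP7*, *ADAMTS16* (5.46 CPM per kb) and *ADAMTS15* (5.29 CPM per kb) overlapped. The transcripts of the other gelatinase, *MMP9*, and of the interstitial collagenase *MMP1* were near the limit of detection, with at most 0.141 and 0.245 CPM in any library.

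**Figure D1:**
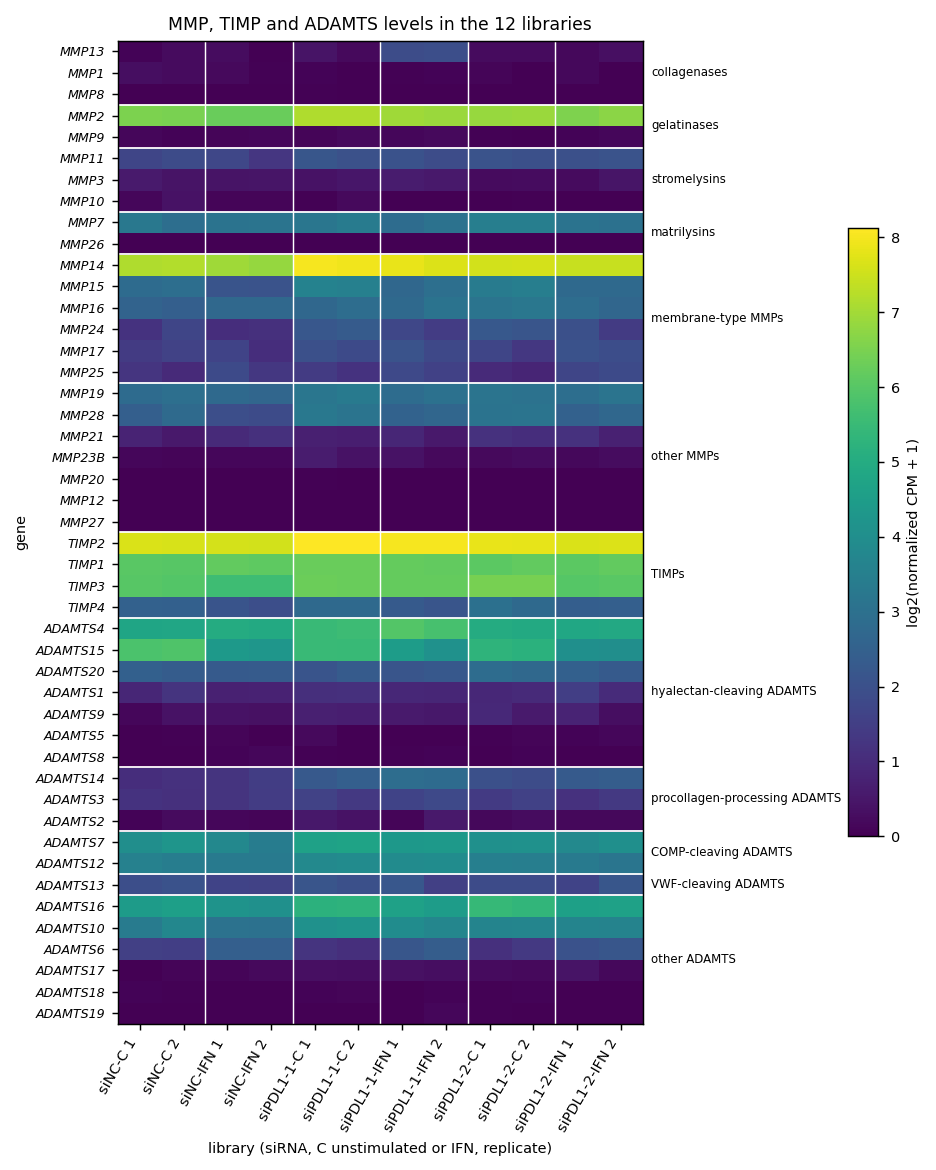
Level of each of the 46 genes (rows, by role) in each of the 12 libraries (columns), as log2 of normalized CPM plus 1. *TIMP2*, *MMP14* and *MMP2* are bright in every column, most rows are dark throughout, and *MMP13* stands out from its own row in the siPDL1-1 libraries with IFNγ.

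Chromosome 11 holds a cluster of 9 of these genes, from *MMP7* to *MMP13*, within 435 kb (GRCh38, 102520508 to 102955732). Only *MMP7* reached a mean of 1 CPM there, and 2 of the 9 had no read. Promoters of this cluster are textbook targets of AP-1 factors, so the AP-1 motif TGANTCA was looked for on both strands of the RefSeq promoters (GRCh38.p14), 250 bases before to 50 bases after each start, which were at hand for 27 of the members. It was found in 4 of these members (14.8%), among them 3 genes of the cluster, and in 7.71% of all 35116 promoters. Members without a promoter at hand were not searched. The gamma-activated site TTCNNNGAA was found in 0 of the 27 and in 7.66% of all promoters. The 4 matches are shown because they come from genes at very different levels, *MMP7* and the nearly silent *MMP10* and *MMP20* within the cluster and *ADAMTS12* on chromosome 5 (7.90 to 14.4 CPM), with the motif in capitals and 10 bases on each side.
MMP7, chr11:102530798-102530824, minus strand: aacactcaaaTGAGTCAcctatttcca
MMP10, chr11:102780679-102780705, minus strand: aacacatgcaTGAATCAtactgttggt
MMP20, chr11:102625428-102625454, minus strand: gtttgagacaTGAATCAtccttgctcg
ADAMTS12, chr5:33892058-33892084, minus strand: cactgtcagcTGAATCActcccctttt
In *MMP7*, which was at 6.38 to 10.2 CPM, and in *MMP10*, which was at 0 to 0.304 CPM, the match lay at the same distance, 67 to 61 bases before the start. The letters were thus present in expressed and in nearly silent genes. Of the 4, *MMP7* and *ADAMTS12* were tested, and limma called neither against siNC, although edgeR and DESeq2 called *ADAMTS12* with siPDL1-1 after IFNγ, as given below.

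Tests were made for the 33 members that passed a filter on low reads. A gene was called where limma gave an FDR below 0.01 over the 17982 genes tested and a fold change above 1.5, on log2 of CPM plus 1, which understates the change of low genes. Of the 33, *MMP13*, *ADAMTS2* and *MMP23B* passed through 3 siPDL1-1 libraries each and would not have passed without the libraries of 1 group, so they are left out of the counts, shares and medians below, which cover the other 30, and no test of them is given. Among the 30, limma called 16 members at least once in 11 comparisons, with 43 calls in all. DESeq2 gave no adjusted p for some of the 30 in each comparison, *MMP3* among them, and could not call those there.

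Cells given siPDL1-1 had higher levels of several proteases than siNC cells in either state, and of the inhibitor *TIMP3* in stimulated cells. *CD274* itself was lower by only 0.20 with siPDL1-1 in stimulated cells (limma FDR 0.0498, not called). In unstimulated cells 8 of the 30 members rose (26.7%, against 2.55% of all genes tested), namely *MMP2*, *MMP14*, *MMP15*, *MMP24*, *ADAMTS4*, *ADAMTS10*, *ADAMTS14* and *ADAMTS16*. None fell by limma (1.45% of all genes), where 2 members had an unadjusted p under 0.05 in that direction and edgeR and DESeq2 also called 0. After IFNγ 9 members rose (30.0%, against 3.73%), namely *MMP2*, *MMP14*, *MMP15*, *MMP28*, *TIMP3*, *ADAMTS4*, *ADAMTS7*, *ADAMTS10* and *ADAMTS14*, and 0 fell by limma (1.75% of all genes), with 1 at an unadjusted p under 0.05 and 0 by edgeR and DESeq2. The median log2 difference from siNC was 0.34 over the 30 members and 0.02 over all genes in unstimulated cells, and 0.41 against 0.00 after IFNγ. The siPDL1-1 libraries lay above both siNC libraries for 21 of the 30 members in unstimulated cells, where this held for 35.6% of all genes, and for 22 members after IFNγ, where it held for 30.9%.

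With siPDL1-2, 5 members were called in unstimulated and 4 in stimulated cells. In unstimulated cells 4 rose (*MMP16*, *MMP24*, *ADAMTS14* and *ADAMTS16*), which is 13.3% against 4.84% of all genes, and *ADAMTS15* fell (3.33% against 1.33%). After IFNγ 4 rose (*MMP15*, *MMP28*, *ADAMTS10* and *ADAMTS14*, 13.3% against 1.92%). None fell there by limma (1.2% of all genes), with 2 members at an unadjusted p under 0.05 and 0 by edgeR and DESeq2. The median log2 difference was 0.29 over the 30 members in unstimulated and 0.30 in stimulated cells, against 0.03 and −0.01 over all genes. The siPDL1-2 libraries lay above both siNC libraries for 20 members without IFNγ (39.4% of all genes) and 17 with it (30.5%). Both siRNAs were compared with the same siNC libraries, so their calls do not come from separate controls.

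**Figure D2:**
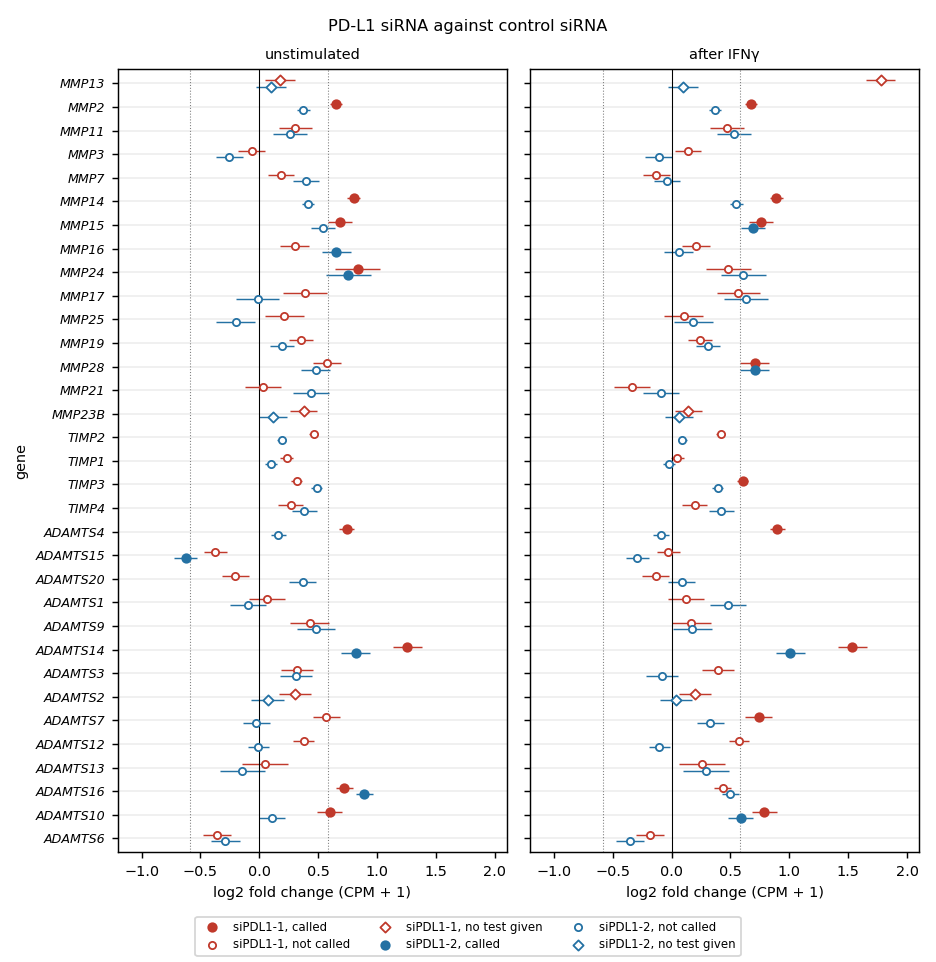
Log2 fold change of each tested gene (rows) with siPDL1-1 (red) and siPDL1-2 (blue) against siNC, unstimulated on the left and after IFNγ on the right, with bars for 1 standard error and dotted lines at a fold change of 1.5. Filled points are called genes and diamonds the 3 genes without a test: most filled points lie to the right of 0, from 0.59 for *ADAMTS10* to 1.54 for *ADAMTS14*, and the blue point of *ADAMTS15* at −0.63 is the only filled one on the left.

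The most abundant protease, *MMP14* (chromosome 14, 22836560 to 22849027), lies at the hub of a known complex: on the cell surface it binds TIMP2 and, through it, the precursor of MMP2, which it then activates. Its values in unstimulated cells were 142 and 143 CPM with siNC, 254 and 245 with siPDL1-1 and 189 and 192 with siPDL1-2. After IFNγ they were 124 and 112, 232 and 208, and 172 and 174 CPM. In either state, siNC was lowest and siPDL1-1 highest with no overlap between the groups. The rise with siPDL1-1 was 0.80 (SE 0.0537, FDR 6.54e-08) on the log2 scale without IFNγ and 0.89 (FDR 9.82e-09) with it, and the differences of siPDL1-2 from siNC, 0.41 and 0.55 (FDR 2.79e-05 and 4.40e-06), were under the fold threshold.

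*MMP2* (chromosome 16, 55389700 to 55506691), which encodes the gelatinase that cuts denatured and basement membrane collagen, followed the same order. Unstimulated siNC cells had 90.4 and 88.9 CPM, siPDL1-1 cells 141 and 142, and siPDL1-2 cells 115 and 118. With IFNγ the values were 76.3 and 75.3 in siNC, 125 and 119 in siPDL1-1, and 92.7 and 104 in siPDL1-2. The siPDL1-1 group was higher by 0.65 (SE 0.0516, FDR 3.23e-07) and 0.68 (FDR 1.16e-07) on the log2 scale. The siPDL1-2 group stood at 0.37 in both states, past the FDR threshold (4.56e-05 and 1.01e-04) but not past the fold threshold. The third partner, *TIMP2*, was at 201 and 197 CPM in unstimulated siNC, 278 and 272 in siPDL1-1, and 231 and 223 in siPDL1-2. Its difference with siPDL1-1 was 0.46 (FDR 5.26e-07) without and 0.42 (FDR 8.27e-07) with IFNγ, below the fold threshold each time.

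**Figure D3:**
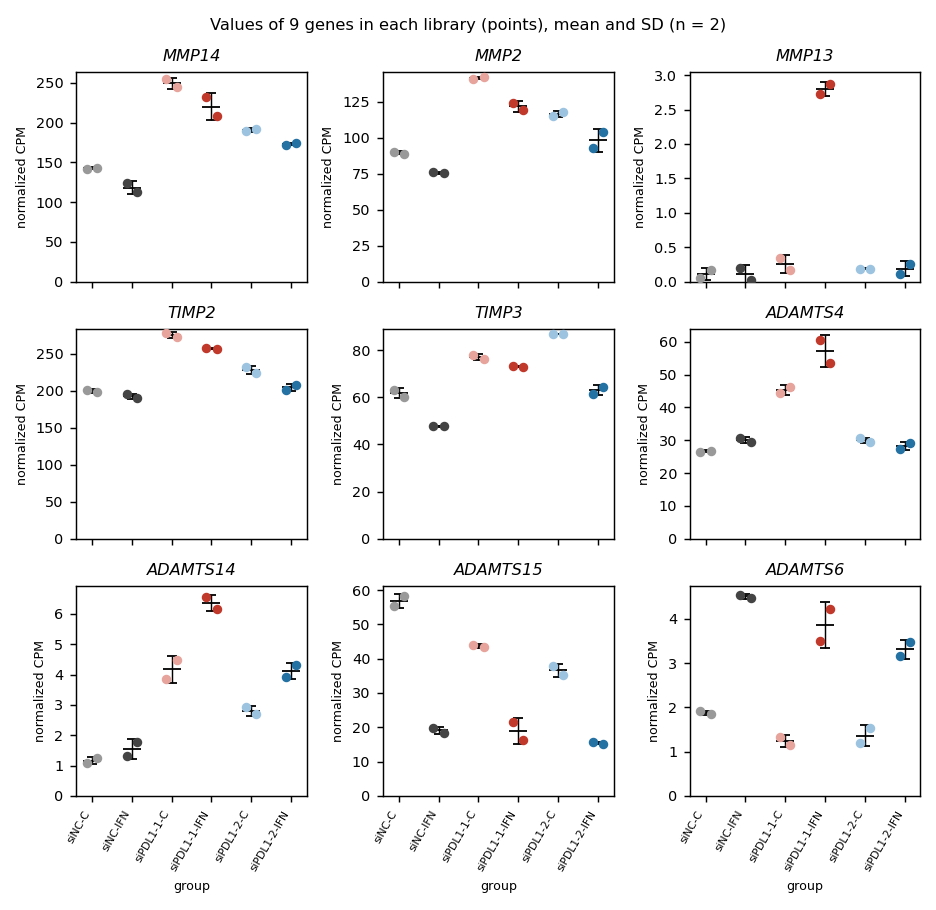
Normalized CPM of 9 genes in each library (points) by group, with the mean and SD of 2 libraries (bars). *MMP14*, *MMP2* and *TIMP2* are highest in the siPDL1-1 groups, *MMP13* stands at 2.72 and 2.87 CPM in the siPDL1-1 libraries with IFNγ and below 0.35 in the others, and *ADAMTS15* and *ADAMTS6* separate by IFNγ.

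The other membrane-type enzymes were expressed at far lower levels. *MMP15* (MT2-MMP) was at 6.17 and 6.66 CPM in unstimulated siNC, 11.2 and 10.6 in siPDL1-1, and 9.49 and 10.1 in siPDL1-2. After IFNγ it was at 3.28 and 3.24, 5.59 and 6.87, and 5.92 and 5.85 CPM. Both siRNA groups lay above siNC in both states. It rose by 0.69 (FDR 1.09e-04) and 0.76 (FDR 3.32e-05) with siPDL1-1 and by 0.69 after IFNγ with siPDL1-2 (FDR 1.31e-04), while the unstimulated siPDL1-2 difference of 0.54 (FDR 5.43e-04) was under the fold threshold. *MMP16* (MT3-MMP), at 4.95 and 4.53 CPM in unstimulated siNC and 7.74 and 8.30 in siPDL1-2, rose by 0.65 with siPDL1-2 (FDR 5.68e-04), and this call ended at FDR 0.0104 without the second siPDL1-2 library.

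*MMP24* (MT5-MMP), known for its expression in the nervous system, was at 1.27 and 2.23 CPM in unstimulated siNC, 3.63 and 4.05 in siPDL1-1, and 3.74 and 3.42 in siPDL1-2. The siRNA groups did not overlap with siNC, but the siNC libraries were themselves far apart. Its rises of 0.84 (FDR 0.00448) and 0.76 (FDR 0.00589) were no longer called without the first siNC library, where they were 0.58 (FDR 0.0665) and 0.50 (FDR 0.0819), without either library of the siRNA group in question (FDR 0.0235 to 0.0464), or with no filter (FDR 0.0152 and 0.0182). The siPDL1-2 call was also lost without the first unstimulated siPDL1-1 library (FDR 0.0101), which changes only the estimate of the spread, and in DESeq2 (FDR 0.0125). The antisense gene *MMP24OS*, at a mean of 77.1 CPM, changed by −0.09 and −0.06 on the log2 scale in these comparisons.

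Among the inhibitors, *TIMP3*, which is bound in the matrix and also blocks several ADAM and ADAMTS enzymes, was at 47.8 and 47.6 CPM in stimulated siNC, 73.0 and 72.9 in siPDL1-1, and 61.5 and 64.5 in siPDL1-2. The rise of 0.60 with siPDL1-1 (SE 0.0473, FDR 1.59e-07) passed the fold threshold narrowly, and the 0.39 of siPDL1-2 (FDR 2.75e-05) did not. In unstimulated cells its values were 63.3 and 60.2 with siNC, 78.1 and 76.0 with siPDL1-1, and 86.9 and 86.8 with siPDL1-2, at differences of 0.32 and 0.49 (FDR 1.38e-04 and 1.91e-06). *TIMP1*, the secreted inhibitor with the highest level per length, ranged only from 64.1 to 76.8 CPM over all libraries. Its largest difference was 0.23, with siPDL1-1 in unstimulated cells (FDR 0.00410), where both siPDL1-1 libraries (75.4 and 76.8 CPM) were above siNC (65.2 and 64.1). *TIMP4*, at 2.88 to 6.97 CPM, differed from siNC by 0.20 to 0.42 across the comparisons of either *PD-L1* siRNA with siNC and was not called. *TIMP1*, *TIMP2* and *TIMP4* were called by limma in none of the 11 comparisons.

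*MMP13* (collagenase 3, chromosome 11, 102942995 to 102955732) differed from the rest of the family in being nearly absent except in 1 group. In the siPDL1-1 libraries with IFNγ it was at 2.72 and 2.87 CPM, from 96 and 61 reads. The other 10 libraries held 1 to 12 reads each, from 0.0208 to 0.348 CPM, and it would not have passed the filter without the siPDL1-1 libraries with IFNγ. By summed reads relative to the library totals, these 2 libraries were 10.7 times the unstimulated siPDL1-1 libraries (95% exact interval 6.63 to 18.3), 23.8 times the stimulated siNC libraries (13.2 to 47.0) and 12.9 times the stimulated siPDL1-2 libraries (6.83 to 27.4), where the intervals cover counting error only. In siNC, the ratio of IFNγ-stimulated to unstimulated cells was 0.833 (0.313 to 2.35).

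On log2 of CPM plus 1, *MMP13* was higher by 1.77 than in stimulated siNC cells, by 1.68 than in stimulated siPDL1-2 cells and by 1.60 than in unstimulated siPDL1-1 cells, given as a description. Among the other 30 members, limma called none for a difference between the IFNγ effects in siPDL1-1 and siNC (0.968% of all genes tested). By limma, 2 were higher and 2 lower at an unadjusted p under 0.05. Neither edgeR nor DESeq2 called any, but DESeq2 gave no adjusted p for many of the 30, *ADAMTS6*, *MMP24* and *MMP25* among them. The libraries in which *MMP13* was high were those with the high *MX2*, *OAS1* and *IFIT1* values given above.

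Of the procollagen-processing ADAMTS genes, which trim the amino-terminal propeptides of fibrillar collagens, *ADAMTS14* (chromosome 10, 70672506 to 70762441) was called in each of the 4 comparisons of a siRNA with siNC. Unstimulated values were 1.08 and 1.24 CPM with siNC, 3.86 and 4.47 with siPDL1-1, and 2.92 and 2.69 with siPDL1-2. After IFNγ they were 1.31 and 1.78, 6.55 and 6.16, and 3.93 and 4.30 CPM. Every library of either siRNA lay above every siNC library. The rises were 1.26 (SE 0.122, FDR 2.50e-06) and 1.54 (FDR 1.82e-07) with siPDL1-1, and 0.82 (FDR 9.16e-05) and 1.01 (FDR 2.84e-05) with siPDL1-2. As ratios of mean CPM they were 3.60, 4.11, 2.42 and 2.66. Its relatives *ADAMTS2* and *ADAMTS3* were at most at 0.470 CPM and at 1.19 to 2.49 CPM, and limma did not call *ADAMTS3*.

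The hyalectan-cleaving enzymes act on versican, brevican and related proteoglycans. *ADAMTS4* (aggrecanase-1) was at 26.5 and 26.9 CPM in unstimulated siNC, 44.4 and 46.3 in siPDL1-1, and 30.6 and 29.4 in siPDL1-2. After IFNγ the values were 30.8 and 29.5, 60.7 and 53.6, and 27.4 and 29.1 CPM. The rises with siPDL1-1 were 0.74 (FDR 9.34e-07) and 0.90 (FDR 6.83e-08). The siPDL1-2 libraries lay above siNC without IFNγ and below it after IFNγ, at 0.16 and −0.09, and were not called. *ADAMTS15* fell with siPDL1-2 in unstimulated cells, from 55.5 and 58.4 CPM to 37.8 and 35.3, by 0.63 on the log2 scale (FDR 1.77e-04), and without the second siPDL1-2 library the change was −0.58, under the fold threshold. With siPDL1-1 it was at 44.1 and 43.4 CPM (−0.37, FDR 0.0105). *ADAMTS1*, *ADAMTS9* and *ADAMTS20* were not called against siNC.

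*ADAMTS7* and *ADAMTS12* cleave cartilage oligomeric matrix protein. *ADAMTS7* was at 12.997 and 9.69 CPM in stimulated siNC cells and at 19.2 and 19.7 with siPDL1-1, a rise of 0.74 (FDR 1.83e-04), which was 0.55 and under the fold threshold without the second siNC library. *MORF4L1*, which overlaps it on the opposite strand at a mean of 270 CPM, rose by 0.64 (FDR 1.44e-07) in the same comparison. According to the methods, reads of both strands were counted, in which case the reads of these genes cannot be told apart where they overlap, while the labels name a stranded library kit. *ADAMTS12* was at 9.18 and 9.26 CPM in stimulated siNC and at 14.0 and 14.4 in siPDL1-1, and its 0.57 by limma (FDR 1.32e-04) was just under the fold threshold. It was past it with a pseudocount of 0.1 (0.62, FDR 1.51e-04), in edgeR (0.62, FDR 4.88e-05) and in DESeq2 (0.64, FDR 2.65e-05).

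*ADAMTS16* rose with both siRNAs in unstimulated cells, from 20.9 and 22.9 CPM in siNC to 36.2 and 37.1 with siPDL1-1 (0.72, FDR 3.46e-06) and 42.7 and 40.0 with siPDL1-2 (0.89, FDR 3.63e-07). After IFNγ the differences were 0.44 and 0.50, past the FDR threshold and under the fold threshold. *ADAMTS10*, whose product binds fibrillin microfibrils, was at 7.43 and 7.18 CPM in stimulated siNC, 14.4 and 12.4 in siPDL1-1 and 11.6 and 11.4 in siPDL1-2, rises of 0.79 (FDR 4.28e-05) and 0.59 (FDR 8.28e-04). The siPDL1-2 value was just under the fold threshold without the second siNC library (0.57) or without the first siPDL1-2 library (0.57). In unstimulated cells it was at 9.45 and 12.4 CPM in siNC, 16.2 and 17.6 in siPDL1-1 and 11.6 and 11.9 in siPDL1-2. Its rise of 0.60 with siPDL1-1 (FDR 6.65e-04) was 0.42 (FDR 0.0144) without the first siNC library and 0.54 (FDR 0.0141) without the second siPDL1-1 library, and it was under the fold threshold in edgeR (0.56) and with DESeq2's size factors (0.57).

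*MMP28* (epilysin) was at 2.85 and 2.66 CPM in stimulated siNC, 4.88 and 5.36 with siPDL1-1, and 4.69 and 5.59 with siPDL1-2. It rose by 0.71 with either siRNA (FDR 3.65e-04 and 5.47e-04), and without the second siPDL1-2 library the latter was 0.60 at FDR 0.0109. *TAF15*, on the opposite strand at a mean of 205 CPM, differed by 0.09 with siPDL1-1 and by 0.30 (FDR 8.49e-04) with siPDL1-2. The remaining secreted MMPs that were tested, *MMP3*, *MMP7*, *MMP11*, *MMP19* and *MMP21*, were not called by limma in any comparison, and neither was the membrane-anchored *MMP17*.

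With IFNγ itself, *ADAMTS15* and *MMP15* fell and *ADAMTS6* rose in each siRNA group. In siNC cells 1 of the 30 members rose, *ADAMTS6* (3.33%, against 6.67% of all genes tested), and 3 fell, *ADAMTS15*, *MMP15* and *MMP28* (10.0%, against 1.45%). In siPDL1-1 cells *ADAMTS6* rose (3.33%, against 5.58%) and *ADAMTS15*, *ADAMTS16*, *MMP15* and *MMP28* fell (13.3%, against 1.3%). In siPDL1-2 cells *ADAMTS6* and *MMP25* rose (6.67%, against 3.62%) and *ADAMTS15*, *ADAMTS16* and *MMP15* fell (10.0%, against 1.65%). The share of members that fell was above that of all genes in each siRNA group. On the read counts edgeR and DESeq2 also called *ADAMTS10* lower in siNC (−0.64 in edgeR, FDR 2.34e-04), where limma gave −0.51 (FDR 0.00148), and edgeR called *ADAMTS14* higher in siPDL1-1 (0.62, FDR 0.00511), where limma gave 0.51 (FDR 0.00437). The median log2 change of the 30 members was −0.17 in siNC, −0.14 in siPDL1-1 and −0.15 in siPDL1-2, where the median of all genes was between −0.02 and 0.00.

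*ADAMTS15* (chromosome 11, 130448974 to 130476641), a versican-cleaving enzyme, had the largest falls by limma in each siRNA group. It went from 55.5 and 58.4 CPM to 19.8 and 18.4 in siNC, from 44.1 and 43.4 to 21.6 and 16.2 in siPDL1-1, and from 37.8 and 35.3 to 15.6 and 15.3 in siPDL1-2. Every stimulated library was below every unstimulated one. The falls on the log2 scale were 1.53 (SE 0.0978, FDR 2.49e-08), 1.18 (FDR 3.90e-07) and 1.19 (FDR 4.83e-07), ratios of mean CPM of 0.336, 0.433 and 0.422, and they were called under all 18 alternative settings in each siRNA group.

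*ADAMTS6* (chromosome 5, 65148738 to 65481920), a close relative of *ADAMTS10*, moved the other way. Its values went from 1.91 and 1.85 to 4.55 and 4.46 CPM in siNC, from 1.33 and 1.15 to 3.49 and 4.23 in siPDL1-1, and from 1.20 and 1.53 to 3.17 and 3.47 in siPDL1-2. All stimulated libraries were above all unstimulated ones, at ratios of mean CPM of 2.40, 3.10 and 2.44. The rises were 0.94 (SE 0.121, FDR 2.14e-05), 1.11 (FDR 4.20e-06) and 0.87 (FDR 7.30e-05).

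*MMP15* fell with IFNγ by 0.80 in siNC (FDR 1.53e-05), 0.73 in siPDL1-1 (FDR 4.55e-05) and 0.65 in siPDL1-2 (FDR 2.01e-04), with the values given above. *ADAMTS16* fell from 36.2 and 37.1 CPM to 24.0 and 21.5 in siPDL1-1 (0.67, FDR 3.88e-06) and from 42.7 and 40.0 to 23.6 and 24.0 in siPDL1-2 (0.77, FDR 1.08e-06). In siNC it went from 20.9 and 22.9 to 17.2 and 15.9 CPM, −0.38 at FDR 6.38e-04, under the fold threshold.

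*MMP28* went from 4.46 and 5.97 to 2.85 and 2.66 CPM in siNC (−0.72, FDR 2.67e-04) and from 8.61 and 7.77 to 4.88 and 5.36 in siPDL1-1 (−0.59, FDR 0.00167). Both values sank below the fold threshold without 1 library, to −0.54 without the second unstimulated siNC library, and to −0.52 and −0.53 without the first siPDL1-1 library of either state. The siPDL1-1 value was also under it with DESeq2's size factors (−0.58). The overlapping gene *TAF15* changed in the same direction, by −0.38 and −0.27. *MMP25* (MT6-MMP), a gene known from leukocytes, was at 0.935 and 0.794 CPM in unstimulated and 2.23 and 2.58 in stimulated siPDL1-2 cells. Its rise of 0.87 (FDR 0.00116) was lost without the second unstimulated (0.81, FDR 0.0182) or the second stimulated siPDL1-2 library (0.79, FDR 0.0189), and its antisense gene *MMP25-AS1*, at a mean of 17.9 CPM, rose by 1.33 (FDR 3.41e-08).

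**Figure D4:**
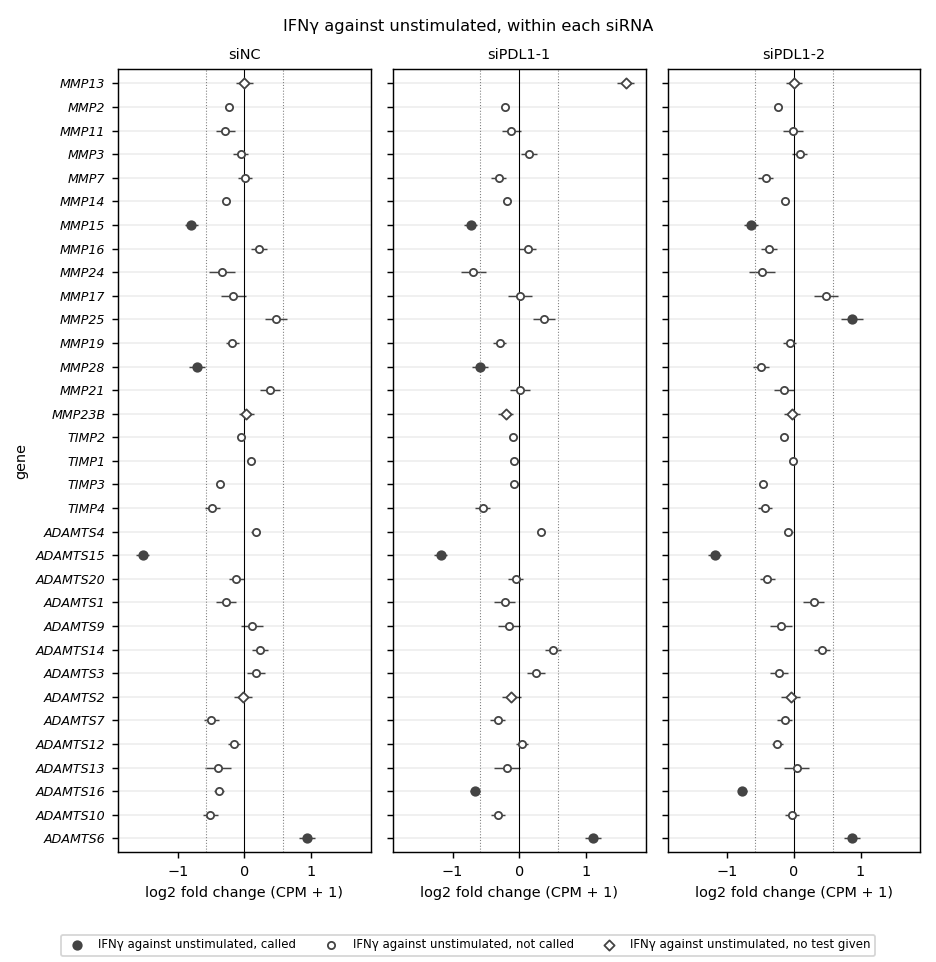
Log2 fold change with IFNγ of each tested gene (rows) in siNC, siPDL1-1 and siPDL1-2 cells (panels), with bars for 1 standard error and dotted lines at a fold change of 1.5. *ADAMTS15* lies farthest left in all 3 panels (−1.53, −1.18 and −1.19), *ADAMTS6* is filled on the right in all 3, and the diamond of *MMP13*, a gene without a test, lies at 1.60 in the middle panel.

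Among the inhibitors, *TIMP3* changed with IFNγ by −0.36 in siNC (FDR 2.14e-05), −0.08 in siPDL1-1 (FDR 0.236) and −0.46 in siPDL1-2 (FDR 3.25e-06), each under the fold threshold. The difference of the siPDL1-1 effect from that in siNC was 0.29 (FDR 0.0274, not called). *TIMP4* changed by −0.48, −0.55 and −0.44 (FDR 0.00233, 9.74e-04 and 0.00662). On the read counts the change in siNC and siPDL1-1 was past the fold threshold, at −0.63 and −0.64 in edgeR (FDR 0.00155 and 0.00161). *TIMP1* and *TIMP2* changed by at most 0.10 and 0.15 in size. *MMP14* and *MMP2* changed with IFNγ in siNC by −0.27 and −0.24 (FDR 8.62e-04 and 0.00182), also under the fold threshold.

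The siRNAs were also compared directly. In unstimulated cells *ADAMTS7* was higher with siPDL1-1, at 24.0 and 25.2 CPM against 15.7 and 16.2, by 0.59 (FDR 0.00120), the 1 member of 30 called higher by limma (3.33%, against 0.884% of all genes). *ADAMTS4*, at 44.4 and 46.3 CPM against 30.6 and 29.4, was at 0.58 by limma (FDR 1.23e-05), just under the fold threshold, but was called in edgeR (0.59, FDR 4.16e-06) and in DESeq2 (0.61). The call was lost without the second siPDL1-1 library (0.56, FDR 0.0158) or either siPDL1-2 library (FDR 0.0137 and 0.0108), and *MORF4L1* differed by −0.18 there. None was called lower by limma (3.47% of all genes), with 5 at an unadjusted p under 0.05, while edgeR and DESeq2 each called 1, *ADAMTS20*, at 3.34 and 4.07 CPM with siPDL1-1 and 6.28 and 5.68 with siPDL1-2 (−0.57 by limma, FDR 0.00129). The siPDL1-1 libraries lay above the siPDL1-2 libraries for 18 members (36.0% of all genes).

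After IFNγ *ADAMTS4* and *ADAMTS12* were higher with siPDL1-1 (6.67%, against 1.79%), by 0.99 (FDR 5.20e-08) and 0.68 (FDR 6.86e-05). The *ADAMTS12* values were 14.0 and 14.4 CPM against 9.15 and 7.90, with 0.58 and no call without the second siPDL1-2 library. None was called lower by limma (0.439% of all genes), with 1 at an unadjusted p under 0.05 and 0 by edgeR and DESeq2. The siPDL1-1 libraries lay higher for 13 members (25.0% of all genes). *MMP14* and *MMP2* differed by 0.34 and 0.31 (FDR 3.86e-04 and 6.44e-04), under the fold threshold.

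Whether the siPDL1-2 effect depended on IFNγ was tested in the same way as for siPDL1-1. No member was called by limma, where 7.62% of all genes were, with 5 members higher and 5 lower at an unadjusted p under 0.05. edgeR called *ADAMTS10* (FDR 0.00798), for which limma gave 0.48 (FDR 0.0271). DESeq2 called 0, but gave no adjusted p for several members, *ADAMTS3*, *MMP17* and *MMP25* among them. The value nearest to the threshold in limma was −0.39 for *ADAMTS16* (FDR 0.0103), and −0.59 for *MMP16* (FDR 0.0173) passed the fold threshold.

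Lists of other genes of matrix turnover give the setting. Of 13 tested activators and other inhibitors, 2 rose with siPDL1-1 in unstimulated cells, 1 with siPDL1-1 after IFNγ and 1 with siPDL1-2 in unstimulated cells, where 2.55%, 3.73% and 4.84% of all genes rose. *PLAU*, which encodes the urokinase that starts the plasmin cascade, rose with siPDL1-1 by 0.73 and 0.67 (FDR 4.02e-07 and 5.59e-07), and *PCSK5*, a proprotein convertase, by 0.89 with siPDL1-1 and 0.73 with siPDL1-2 in unstimulated cells (FDR 1.60e-05 and 7.19e-05). With IFNγ 3 of the list rose in siNC, 3 in siPDL1-1 and 2 in siPDL1-2, against 6.67%, 5.58% and 3.62% of all genes. Of these, *A2M*, a broad protease inhibitor of plasma, rose from 56.0 to 276 CPM in siNC, by 2.28 (FDR 1.50e-14), and by 1.56 and 1.62 in siPDL1-1 and siPDL1-2. The *A2M* effect differed from that in siNC by −0.72 and −0.66 (FDR 1.37e-05 and 4.20e-05). The urokinase receptor gene *PLAUR* rose by 1.05, 1.13 and 1.19, and *SERPINE2*, an inhibitor of thrombin and urokinase, by 1.10 in siNC and 0.70 in siPDL1-1. *SERPINE2* fell with siPDL1-2 after IFNγ by 0.68 (FDR 6.39e-07).

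Of 15 tested matrix substrates, 6 rose with siPDL1-1 in each state and none fell, against 2.55% and 3.73% of all genes, and 0 were called with siPDL1-2 in either direction. The largest rises were those of *FBN1* (fibrillin-1, 1.16 and 1.13), *COL1A2* (0.94 and 1.00) and, in unstimulated and stimulated cells, *BGN* (biglycan, 0.94 and 0.85). With IFNγ 2 of the list fell in siNC, 1 in siPDL1-1 and 1 in siPDL1-2, against 1.45%, 1.3% and 1.65% of all genes. *COL1A1*, a chain of type I collagen, fell in siNC from 25.1 to 13.5 CPM, by 0.86 (FDR 1.56e-06), and *VWF*, the substrate of ADAMTS13, fell by 0.97, 0.64 and 0.64 from at most 4.25 CPM, while *ADAMTS13* itself, at 1.93 to 3.58 CPM, was not called. Of 14 tested ADAM and ADAMTS-like genes, 2 rose with siPDL1-1 in each state (2.55% and 3.73% of all genes) and 1 with siPDL1-2 in unstimulated cells (4.84%). *ADAMTSL4*, a fibrillin-binding relative without protease domain, rose with siPDL1-1 by 1.08 and 0.94, *ADAM12* by 0.63 and 0.62, and *ADAM10* with siPDL1-2 in unstimulated cells by 0.66.

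Of 13 tested AP-1 and ETS factors, known regulators of MMP promoters, 2 rose with IFNγ in siNC, 2 in siPDL1-1 and 1 in siPDL1-2 (6.67%, 5.58% and 3.62% of all genes). *ATF3* and *ETV1* rose with IFNγ in siNC (0.70 and 1.17) and in siPDL1-1 (1.56 and 1.28), and *JUNB* in siPDL1-2 (0.90, FDR 0.00666). The *ATF3* effect of IFNγ was larger in siPDL1-1 than in siNC by 0.86 (SE 0.107, FDR 1.36e-04), and it was the 1 factor of the list that limma called there (0.968% of all genes). With siPDL1-2, *ETV5* and *ETV1* rose and *ETS2* fell in unstimulated cells (0.68, 1.09 and −0.77, where 4.84% of all genes rose and 1.33% fell), and *JUND* rose after IFNγ (0.90, FDR 0.00830, where 1.92% rose).

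The 13 members that were not tested had between 0 and 12 reads in any library. The highest was *ADAMTS17* with 71 reads over all libraries, followed by *MMP9* with 34, *MMP1* with 31 and *MMP10* with 30. They were left out by the filter. In a fit with no filter, limma called none of the 10 that had a read in any of the 11 comparisons, with 8 of the 110 values at an unadjusted p under 0.05, and edgeR and DESeq2 were not run on them.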

How the data were processed

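The RNA of 12 U251 libraries was measured by RNA-seq, and the sample labels gave the groups. According to the methods, trimming, alignment to GRCh38 (Ensembl) and counting on both strands were done by the authors in CLC Genomics Workbench. The labels and design text name a stranded library kit and another RNA kit and instrument than the methods. The signal values are normalized CPM as deposited by the authors, in 1 column per library. All values (100%, tolerance 0.1 read) were whole multiples of 1 read, and reads were recovered from them for the filter and the count tests. The columns summed to 0.965 to 1.042 times the total of plain CPM.

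Genes were kept with filterByExpr (minimum count 10, minimum total count 15), which left 17982. Members whose passing depended on the libraries of 1 group were left out of counts and shares, a choice made after seeing the data. The 12 libraries were fitted as 6 groups with limma (trend and robust) after adding a pseudocount of 1 to the CPM and taking log2. FDR is the Benjamini-Hochberg adjusted p over all genes tested, and a call needed an FDR below 0.01 with a fold change above 1.5. Intervals for read ratios are exact binomial (Clopper-Pearson). Levels per kb used the GENCODE canonical transcript, and all 46 members were matched to it by gene ID.

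The members and gene lists were chosen with earlier results of these data known, and the lists were written from general knowledge. Members with a call, the TIMP genes and the 5 members with the highest level per length are given by library, and list genes are named if called, up to 3 per direction. The alternatives were no filter, a pseudocount of 0.1, DESeq2's size factors, edgeR's quasi-likelihood test, DESeq2's Wald test, the replicate number as a block, leaving out each library, fits of the 6 libraries of a state, and no fold change threshold. The fit was tested on simulated data. Replicate libraries were checked for duplication (mean chi-square of 1.85 to 7.76 between their reads, where copies give 0). Software was limma 3.58.1, DESeq2 1.42.0 and edgeR 4.0.16 in R 4.3.3, with tables made by pandas 2.3.3 and plots by matplotlib 3.10.9 in Python 3.11.15. Protein sequences were not analysed here. The results for 2 genes that are no members are not reported here.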

Additional observations from a re-analysis of the deposited data

Results flagged for a closer look

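On log2 of CPM plus 1, the change of *MMP13* with IFNγ was larger by 1.60 in siPDL1-1 than in siNC cells, given as a description. The value rests on the 96 and 61 reads of the siPDL1-1 libraries with IFNγ against 1 to 12 reads in each other library. *MMP13* would not have passed the filter on reads without these libraries, so no test of this difference is given as support. The main limma fit had called the difference, a call not used here, and the call was lost with a pseudocount of 0.1 and in edgeR.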

How the results depend on the processing

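Over all 33 tested members there were 47 calls, 4 of them of *MMP13*, and the counts here include them. Of the 47, 42 kept direction and call under every alternative that used all libraries of the comparison, and 33 also without any 1 library, where 540 of the refitted values kept the call and 24 lost it. DESeq2 gave no adjusted p for 3 of the calls, all of *MMP13*, which count there as neither kept nor lost. The counts that follow show only how the number of members called moved with the setting. The share of all genes called under each setting is not given, so they are no result about the members. With no fold change threshold, the members called numbered 11, 10 and 10 for IFNγ in siNC, siPDL1-1 and siPDL1-2, 14 and 11 for siPDL1-1 and siPDL1-2 against siNC in unstimulated cells, 9 for siPDL1-2 after IFNγ, and 8 and 8 for siPDL1-1 against siPDL1-2. In unstimulated cells the last comparison gave 3 with a pseudocount of 0.1, 2 with DESeq2's size factors, 3 in edgeR and 3 in DESeq2. The siPDL1-1 interaction gave 0 with a pseudocount of 0.1, in edgeR and without the 3 members that passed the filter through 1 group (an alternative chosen after seeing the data), and the siPDL1-2 interaction 1 in edgeR; the cause was not tested. Leaving out 1 library gave 2 to 7 for siPDL1-2 in unstimulated cells (2 without its second library), 3 to 7 after IFNγ (7 without the first siNC library), 1 to 2 for siPDL1-1 against siPDL1-2 unstimulated (2 without the first siPDL1-1 library), and 0 to 1 for the siPDL1-2 interaction (1 without the first unstimulated siNC library or either stimulated siPDL1-1 library). Small TIMP values, none of them called, changed sign without 1 library: *TIMP1* ranged from −0.0661 to 0.0346 with IFNγ in siPDL1-2 and from −0.0705 to 0.0301 with siPDL1-2 after IFNγ, and *TIMP4* from −0.144 to 0.00427 in the siPDL1-1 interaction and from −0.0640 to 0.146 in the siPDL1-2 interaction. Replicate numbers did not pair the libraries (correlations of deviations from −0.132 to 0.194 over 15 pairs of groups), and all 47 calls held with the replicate block. The 13 members with the fewest reads were left out by the filter, and with no filter 0 of them were called.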
